A study of Mus musculus with 6 samples.

Results

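The Fanconi and double-strand break repair genes described here are 35 genes chosen by symbol from the 24421 genes of the deposited count table, by a rule that uses no measured value. All 35 were found, and all 35 passed the low-count filter, with 114 to 8286 read pairs per gene and pool. They comprise 8 genes of the Fanconi core complex, the FANCI-FANCD2 pair, 4 genes of the BRCA group, 5 recombination mediators (Rad51b, Rad51c, Rad51d, Xrcc2 and Xrcc3), 3 helicases and translocases of recombination, 4 genes of end resection, 4 damage kinases and 5 genes of end joining. RNA was sequenced from Lin-CD117+ bone marrow cells of CByB6F1 mice, which lack lineage antigens, carry the KIT receptor and include blood stem and progenitor cells. The libraries were 3 RUX-treated pools (numbered 4 to 6) and 3 untreated pools (numbered 1 to 3). Ruxolitinib (RUX) is an inhibitor of the kinases JAK1 and JAK2, and the study asked what it does to these cells in normal mice. All mice were labelled female and 2 to 5 months old, and each pool joined sorted cells of 2 to 3 mice of one group. The sources used here do not give the dose or the length of treatment.

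The Fanconi pathway repairs crosslinks between DNA strands. Its core complex attaches ubiquitin to FANCD2 and FANCI, after which nucleases unhook the crosslink and the resulting break is repaired by homologous recombination. In recombination, broken ends are resected, and BRCA1, PALB2, BRCA2 and further mediators prepare them to copy an intact template. End joining instead ligates broken ends directly. Inherited loss of Fanconi genes causes bone marrow failure, and the pathway is known to protect blood stem cells from damage by aldehydes and replication stress. Many recombination genes are transcribed mainly in S phase.

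Counted read pairs per library ranged from 46027491 to 48747137 in RUX pools and from 27354768 to 38691826 in untreated pools. The 35 repair genes together took 0.118 to 0.162% of the counts of the RUX pools and 0.128 to 0.150% of those of the untreated pools. The gate could be checked at the level of RNA only. Kit measured 295, 412 and 416 CPM (read pair counts scaled to library size) in RUX pools 4, 5 and 6 and 409, 471 and 196 CPM in untreated pools 1, 2 and 3. Of the lineage antigens, Cd3e and Cd8a did not exceed 0.538 CPM in any of the 6 pools, whereas Itgam, an integrin gene of myeloid cells, ranged from 10.9 to 17.1 CPM. RUX pool 4 and untreated pool 3 were the lowest pools for Kit, and 26 of the 35 repair genes were lowest in one or the other. Of all tested genes, 19.6% were lowest in RUX pool 4 and 21.6% in untreated pool 3. Results were also computed without both pools, a setting chosen after these values were seen. In bulk RNA, fewer cells of a type and less RNA per cell cannot be told apart.

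No repair gene differed between RUX and untreated pools by the test. Of the 35 genes, 0 had an adjusted p under 0.05 in edgeR's quasi-likelihood test (smallest adjusted p = 0.9999), where 0% of the 13411 tested genes were called. At an unadjusted p under 0.05 there were also 0 repair genes, against 1.89% of tested genes (0.85% higher and 1.04% lower), and DESeq2 and limma-voom likewise gave 0 at either threshold. The 3 RUX values overlapped the 3 untreated values for each of the 35 genes, whereas 6.24% of tested genes showed no overlap (2.99% higher and 3.25% lower). Log2 fold changes (RUX minus untreated) were positive for 17 genes and negative for 18, with a median of −0.01, beside 49.2% positive and 50.8% negative and a median of −0.004 over all tested genes.

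The pools bounded the size of any difference. For 35 of 35 repair genes the 95% interval stayed inside a 2-fold difference, higher or lower, where the share was 80.9% over all tested genes. For 29 of the 35 it stayed inside 1.5-fold, where the share was 56.8%. Fitted folds ran from 0.84 for Rbbp8 to 1.12 for Atm, and the widest bounds reached were 0.65 (Lig4) and 1.55 (Fancb). The repair genes had a median level of 31.7 CPM, beside 24.6 CPM over all tested genes. Differences inside a gene's own interval, in either direction, were not excluded with 3 pools per group. The pools joined different mice, and p-values set the group difference against the spread between pools.

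**Figure D1:**
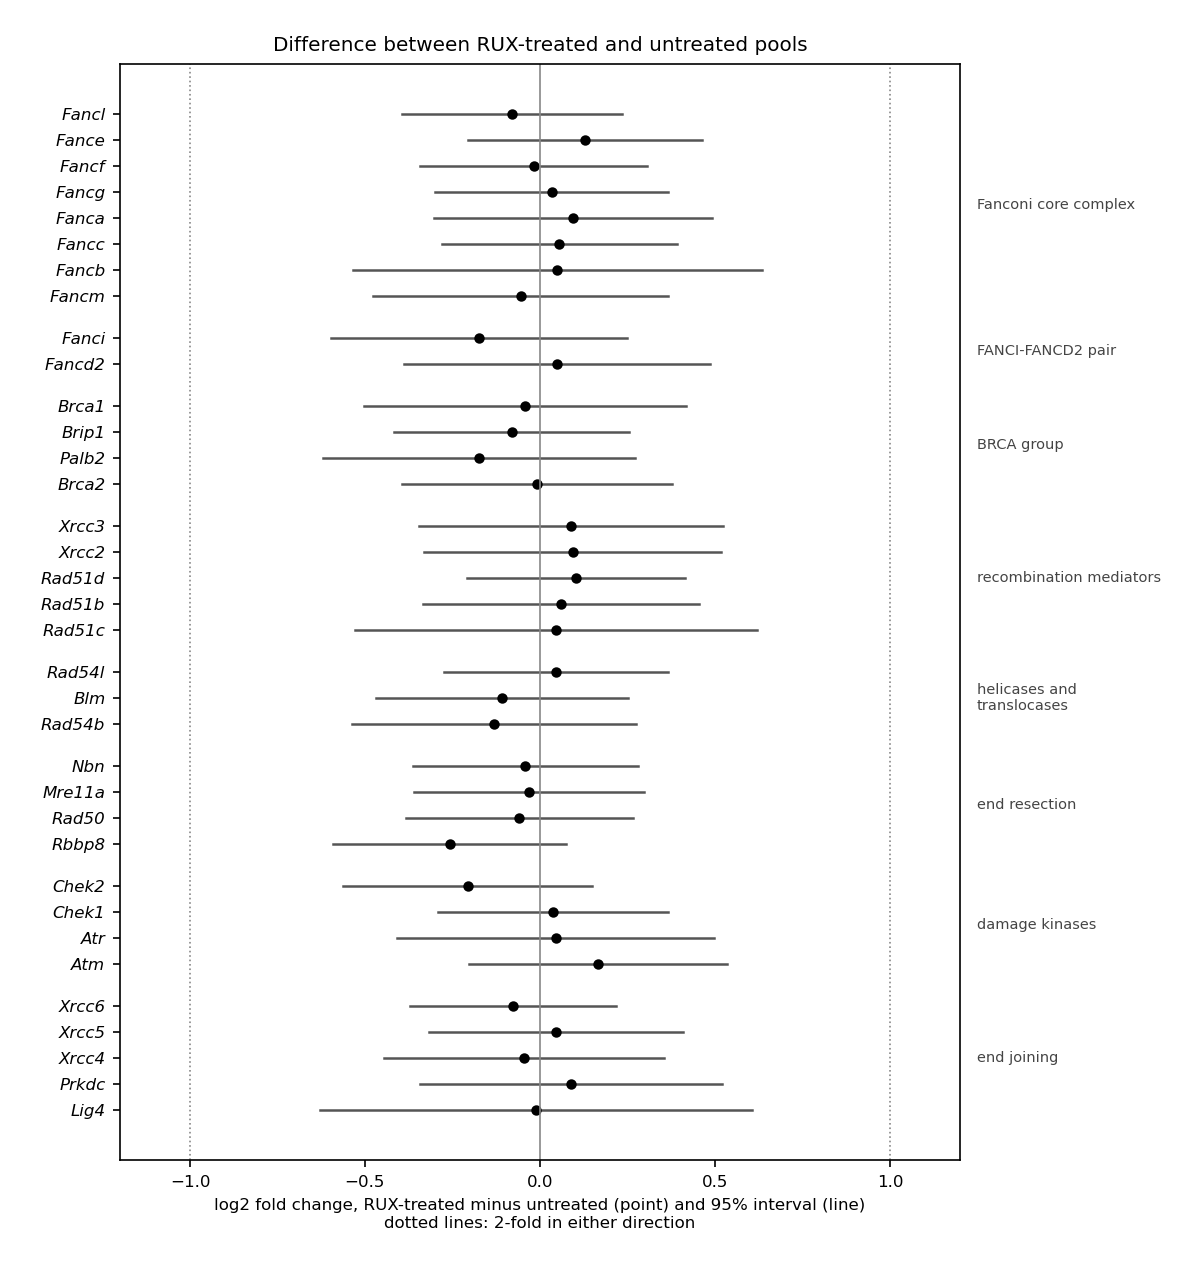
Log2 fold change of each of the 35 repair genes, RUX-treated minus untreated (x axis, log2 units), with genes grouped by role down the page. Points are the edgeR estimates and lines their 95% intervals from 3 pools per group; every line crosses 0 and stays inside the dotted lines at 2-fold.

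Promoter sequences are shown for the members nearest to a difference, those with the smallest unadjusted p on each side whose windows could be printed: Chek2 and Fanci on the lower side, Atm and Fance on the higher side. Each is the 250 bases before the RefSeq gene start in GRCm38.p6, read 5′ to 3′ on the gene's strand, with matches to the searched motifs in capitals. The Chek2 window is chr5:110839733-110839982 on the plus strand, the Fanci window chr7:79392088-79392337 on the plus strand, the Atm window chr9:53536672-53536921 on the minus strand and the Fance window chr17:28313280-28313529 on the plus strand.
Chek2: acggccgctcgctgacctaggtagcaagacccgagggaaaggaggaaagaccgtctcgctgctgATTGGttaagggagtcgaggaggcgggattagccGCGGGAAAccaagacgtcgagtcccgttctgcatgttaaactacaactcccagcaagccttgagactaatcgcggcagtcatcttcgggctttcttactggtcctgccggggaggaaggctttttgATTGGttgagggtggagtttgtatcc
Fanci: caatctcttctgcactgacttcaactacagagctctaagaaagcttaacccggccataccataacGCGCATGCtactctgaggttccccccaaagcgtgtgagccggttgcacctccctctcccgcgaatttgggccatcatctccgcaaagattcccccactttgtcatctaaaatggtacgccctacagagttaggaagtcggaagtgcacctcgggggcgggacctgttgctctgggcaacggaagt
Atm: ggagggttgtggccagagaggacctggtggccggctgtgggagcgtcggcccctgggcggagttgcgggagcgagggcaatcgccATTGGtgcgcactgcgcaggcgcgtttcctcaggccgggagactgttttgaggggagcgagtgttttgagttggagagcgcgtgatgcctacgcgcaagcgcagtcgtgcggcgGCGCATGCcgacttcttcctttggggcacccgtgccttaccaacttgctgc
Fance: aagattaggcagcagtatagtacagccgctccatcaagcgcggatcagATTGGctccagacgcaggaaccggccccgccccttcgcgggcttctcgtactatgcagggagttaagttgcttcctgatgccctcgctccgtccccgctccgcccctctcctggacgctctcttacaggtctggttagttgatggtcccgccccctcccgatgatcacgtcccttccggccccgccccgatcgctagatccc

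The motifs were searched on both strands. They were the E2F forms TTTGGCGC, TTTCCCGC and TTTCGCGC, the cell cycle homology region (CHR) form TTTGAA, the CCAAT box CCAAT and the NRF1 half-site form GCGCATGC, none of which overlapped another in the printed windows. The Chek2 window held a CCAAT box on the minus strand at each of 186 and 26 bases before the start and the E2F form TTTCCCGC on the minus strand at 152 bases. In the Atm window a minus-strand CCAAT box began at 165 bases and GCGCATGC at 51 bases before the start. Fance held a single minus-strand CCAAT box at 202 bases, and Fanci only GCGCATGC at 185 bases. Of the 35 members, 27 had an entry in the promoter table. A CCAAT box was in 16 of the 27 (59.3%), against 37.5% of 27025 genes with an entry and 40.2% of the 10179 that were also tested. The E2F forms were in 4 of the 27, Fancg, Brca2, Chek2 and Xrcc6 (14.8%, against 1.78% of all and 3.42% of tested genes). GCGCATGC was in Fancm, Fanci, Atm and Lig4 (14.8%, against 2.56% of all and 5.01% of tested genes). TTTGAA was in 0 of the 27, against 18.3% of all and 12.9% of tested genes. These are matches of letters in a fixed window, not measured binding sites.

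Levels of the repair genes spanned a wide range. Per kb of exon, Xrcc6 was the highest at 75.6 ± 4.95 CPM per kb (SD over the 6 pools, as in the other values of this paragraph), and its range did not meet that of the next gene. Fancl followed at 29.3 ± 2.66 CPM per kb, then Nbn at 26.9 ± 2.70, Xrcc5 at 25.2 ± 3.75, Chek2 at 24.6 ± 3.67 and Rad54l at 22.9 ± 2.36 CPM per kb, and the ranges of these neighbours overlapped. The middle of the order was continuous, since each gene from Fancl down to Brca2 (3.29 ± 0.522 CPM per kb) overlapped its neighbours. A second gap separated Brca2 from Fancm (2.06 ± 0.339), Rad51c (1.99 ± 0.503), Rad54b (1.90 ± 0.256) and Lig4 (1.10 ± 0.277 CPM per kb), which had the 4 lowest values and overlapped each other in that order. The median of all tested genes was 7.55 CPM per kb, and 16 of the 35 repair genes lay above it. Exon length here is the union of all annotated exons of a gene, which lowers the value per kb of genes with alternative exons.

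**Figure D2:**
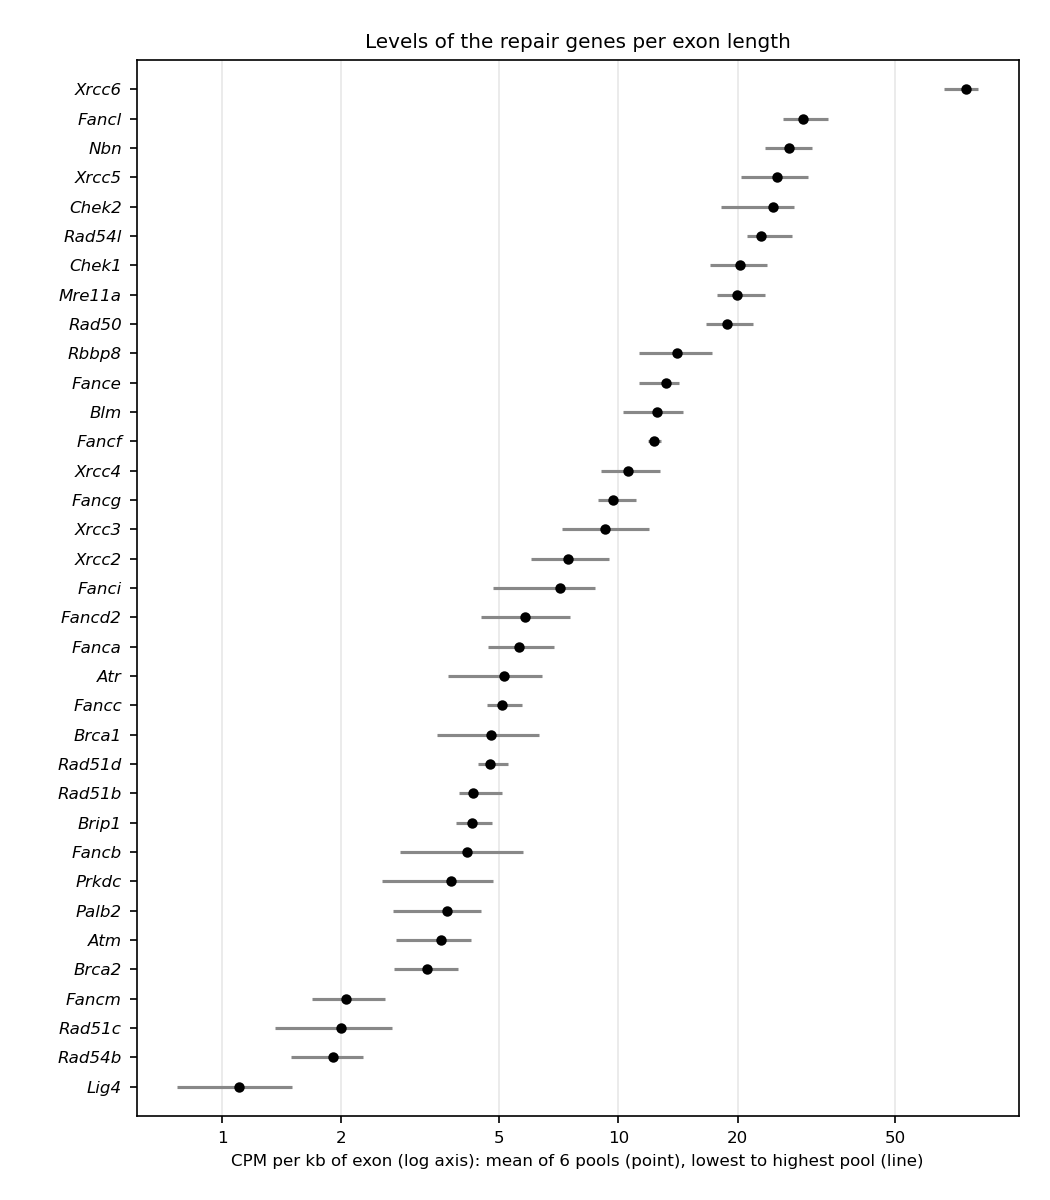
Level of each repair gene in CPM per kb of exon (x axis, log scale), ordered from highest at the top to lowest at the bottom. Points are means of the 6 pools and lines run from the lowest to the highest pool; Xrcc6 at 75.6 CPM per kb stands clear of the rest, and Lig4 is lowest at 1.10 CPM per kb.

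Some of these levels are uncertain because the genes share exon bases with others, and such read pairs were left out of counting. Rad54b shares 58.5% of its exon bases with Fsbp on the same strand. Fancl shares 21.6% with Vrk2, Fanca 17.1% with Zfp276, Fanci 8.62% with Polg and Rad54l 5.04% with Lrrc41, each on the opposite strand. Fancc, Atr and Xrcc3 share 1.77, 2.32 and 0.495% of their exon bases with a neighbour. Leaving such pairs out lowers the counts of these genes, while the full exon length stayed the divisor of their values per kb. The places of Rad54b, Fancl and Fanca in the order of levels are therefore uncertain.

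No Fanconi core complex gene passed the test, and most varied little between pools. Fancf, an adaptor of the complex with a single exon (chromosome 7, 51860577 to 51862267 in mm10), measured 20.7, 20.5 and 20.8 CPM in RUX pools 4, 5 and 6, against 21.0, 21.7 and 20.1 CPM in untreated pools 1, 2 and 3. Its highest pool was 1.08 times its lowest, the narrowest span among the members, for which it was picked after its values were seen, and the groups overlapped. Fancl encodes the ubiquitin ligase subunit (chromosome 11, 26387084 to 26471883) and measured 53.4, 46.3 and 52.4 CPM in the RUX pools and 60.4, 50.8 and 49.6 CPM in the untreated pools. Untreated pool 1 was the highest of these and the other 5 pools lay together. Fance, which links the core complex to FANCD2 (chromosome 17, 28313530 to 28326574), measured 25.9, 28.7 and 28.7 CPM in the RUX pools and 22.7, 25.1 and 28.5 CPM in the untreated pools (log2 fold change 0.13 ± 0.16 (SE)), and untreated pool 3 fell among the RUX pools. Fanca, the gene most often mutated in human Fanconi anemia, measured 21.3, 26.3 and 31.2 CPM in the RUX pools and 22.4, 29.4 and 22.0 CPM in the untreated pools (log2 fold change 0.09 ± 0.18 (SE)). Here the spread within each group exceeded the difference between them.

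Fancm encodes a DNA translocase that recruits the core complex to stalled forks, and it was the lowest of the 8 per length. It measured 13.1, 14.0 and 20.01 CPM in the RUX pools and 14.6, 18.05 and 16.3 CPM in the untreated pools, and RUX pool 6 was the highest of all pools. Fancb, the X-linked member (chromosome X, 164980592 to 164997272), had the widest span of the 35 genes and was picked for it after its values were seen, with 8.29, 13.3 and 15.7 CPM in the RUX pools and 17.0, 10.3 and 8.90 CPM in the untreated pools. Both groups held a pool near 9 CPM or below and a pool above 15 CPM, and the interval of its fold change was 0.69 to 1.55. Fancc and Fancg, further subunits of the complex, spanned 20.04 to 24.5 and 24.2 to 30.3 CPM over the 6 pools. Over the 8 genes, 5 log2 fold changes were positive and 3 negative, from −0.08 (Fancl) to 0.13 (Fance).

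FANCI and FANCD2 form the clamp that the core complex marks with ubiquitin, and both genes varied widely between pools of the same group. Fanci (chromosome 7, 79392338 to 79450264) measured 22.3, 32.0 and 38.1 CPM in RUX pools 4, 5 and 6, against 40.4, 33.3 and 30.7 CPM in untreated pools 1, 2 and 3. RUX pool 4 was well below the other 5 pools, and the log2 fold change was −0.17 ± 0.20 (SE) with an interval of the fold of 0.66 to 1.19. Without RUX pool 4 it was 0.02. Fancd2 (chromosome 6, 113531682 to 113596285) measured 21.6, 27.1 and 36.0 CPM in the RUX pools and 29.6, 30.6 and 21.7 CPM in the untreated pools, a log2 fold change of 0.05 ± 0.20 (SE). RUX pool 4 and untreated pool 3 were both low for Fancd2, and RUX pool 6 was the highest.

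The BRCA group showed the same kind of spread. Brca1, whose product starts recombination and recruits PALB2 (chromosome 11, 101488764 to 101551955), measured 23.2, 28.6 and 42.0 CPM in RUX pools 4, 5 and 6, against 35.5, 35.3 and 25.8 CPM in untreated pools 1, 2 and 3. The lowest and the highest of the 6 pools were both RUX pools, and the groups averaged 31.3 ± 9.71 CPM in RUX pools and 32.2 ± 5.53 CPM in untreated pools (SD, n = 3 each). Brca2, which acts on resected ends (chromosome 5, 150522621 to 150570146), measured 30.9, 34.8 and 43.9 CPM in the RUX pools and 37.1, 42.9 and 30.2 CPM in the untreated pools. It averaged 36.5 ± 6.64 CPM in RUX pools and 36.8 ± 6.35 CPM in untreated pools (SD, n = 3 each). Palb2, the bridge between BRCA1 and BRCA2 (chromosome 7, 122107262 to 122132946), measured 10.7, 14.1 and 16.4 CPM in the RUX pools and 16.4, 17.8 and 12.3 CPM in the untreated pools (log2 fold change −0.17 ± 0.21 (SE)). Its RUX values lay lower on average, but RUX pools 5 and 6 were above untreated pool 3. The log2 fold change was −0.0174 without RUX pool 4. Brip1, a helicase that binds BRCA1, spanned 26.99 to 33.3 CPM over all pools. All 4 log2 fold changes were negative, from −0.17 to −0.01, and none passed the test. Without RUX pool 4, Brca1 stood at 0.14 and Brca2 at 0.10. Brca1 was positive in 4 of the 6 fits with a pool left out and Brca2 in 3.

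The recombination mediators, which act together in complexes on resected ends, had 5 of 5 log2 fold changes on the positive side, from 0.05 to 0.10, and 0 of 5 passed. Single pools turned Rad51c, Xrcc2 and Xrcc3. Rad51c was −0.11 without RUX pool 4 and −0.15 without untreated pool 1. Xrcc2 was −0.0875 without RUX pool 6 and −0.02 without untreated pool 3. Xrcc3 was −0.11 without RUX pool 6 and −0.0382 without untreated pool 2. Rad51d kept its direction with each pool left out, and Rad51b was not followed in these fits. Rad51d (chromosome 11, 82871961 to 82890624) measured 40.5, 34.2 and 38.5 CPM in RUX pools 4, 5 and 6, against 36.4, 34.9 and 34.2 CPM in untreated pools 1, 2 and 3. RUX pools 4 and 6 were the highest, but RUX pool 5 lay among the untreated pools, and the log2 fold change was 0.10 ± 0.14 (SE). Xrcc2, the partner of RAD51D (chromosome 5, 25689816 to 25705797), measured 19.3, 24.3 and 30.5 CPM in the RUX pools and 27.7, 22.5 and 19.4 CPM in the untreated pools (log2 fold change 0.09 ± 0.20 (SE)), and both extremes were RUX pools. Xrcc3 (chromosome 12, 111803193 to 111813841) was the highest of the 5 per length and measured 17.9, 22.5 and 29.0 CPM in the RUX pools and 22.9, 17.5 and 24.9 CPM in the untreated pools. RUX pool 6 gave the highest Xrcc3 value and untreated pool 2 the lowest. Rad51c (chromosome 11, 87377607 to 87404954), the partner of XRCC3, was the lowest of the 5 per length. It measured 8.20, 6.56 and 5.37 CPM in the RUX pools and 4.50, 6.07 and 8.87 CPM in the untreated pools, and so ran opposite to most members, highest in untreated pool 3 and RUX pool 4. Rad51b lay between 11.3 and 14.4 CPM, with RUX pool 4 on top.

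None of the 3 helicases and translocases of recombination passed the test. Rad54l, a DNA motor of strand invasion (chromosome 4, 116096955 to 116123690), measured 65.5, 65.1 and 84.5 CPM in the RUX pools and 68.5, 72.0 and 67.9 CPM in the untreated pools. RUX pool 6 was above the other 5 pools, which lay within 65.1 to 72.0 CPM. Blm, the BLM helicase that dissolves joined DNA molecules, averaged 59.7 ± 10.8 CPM in RUX pools and 64.4 ± 8.69 CPM in untreated pools (SD, n = 3 each). Its log2 fold change was −0.11 ± 0.17 (SE). Rad54b (chromosome 4, 11558920 to 11615808), a relative of RAD54L, measured 10.5, 14.1 and 13.7 CPM in the RUX pools and 12.4, 13.6 and 15.96 CPM in the untreated pools. RUX pool 4 was its lowest and untreated pool 3 its highest pool, for a log2 fold change of −0.13 ± 0.19 (SE), which turned to 0.10 without those pools.

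The end resection genes held the member nearest to the threshold, although it did not pass. Rbbp8 encodes CtIP, which starts the trimming of broken ends (chromosome 18, 11633276 to 11743207). It measured 44.0, 49.8 and 56.3 CPM in RUX pools 4, 5 and 6, against 67.2, 52.2 and 60.2 CPM in untreated pools 1, 2 and 3. RUX pool 6 lay above untreated pool 2, so the groups overlapped by that one pair. Its log2 fold change was −0.26 ± 0.15 (SE), with an interval of the fold of 0.66 to 1.05, an unadjusted p of 0.119 and an edgeR adjusted p of 0.9999. Mre11a, Rad50 and Nbn encode the MRN complex that senses broken ends. Nbn (chromosome 4, 15957967 to 15992589), the highest of this group per length, measured 58.2, 63.1 and 76.7 CPM in the RUX pools and 66.1, 64.9 and 72.9 CPM in the untreated pools. Mre11a averaged 59.2 ± 9.63 CPM in RUX pools and 60.5 ± 3.71 CPM in untreated pools and Rad50 averaged 94.8 ± 15.6 CPM in RUX pools and 98.8 ± 5.32 CPM in untreated pools (SD, n = 3 each). In all 3 MRN genes RUX pool 6 was the highest of the 6 pools while RUX pools 4 and 5 were the lowest. Without RUX pool 6, the highest pool for 16 of the 35 members, Rbbp8, Rad50, Nbn and Mre11a each lay entirely lower in RUX pools. So did Fancm, Rad54l and Chek2, and these were the 7 of 35 members without overlap in that fit. Over all tested genes 15.2% then showed no overlap, counting both directions, and the share lower alone is not given here. The edgeR adjusted p of the 7 members was 0.9999 in that fit, with log2 fold changes from −0.36 (Chek2) to −0.09 (Rad54l).

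Among the damage kinases, Chek2 lay lower and Atm higher with RUX on average, and neither passed. Chek2, a checkpoint kinase that ATM activates (chromosome 5, 110840017 to 110874133), measured 40.7, 51.4 and 61.9 CPM in RUX pools 4, 5 and 6, against 62.5, 59.5 and 55.7 CPM in untreated pools 1, 2 and 3. RUX pool 4 was the lowest, and RUX pool 6 lay just under the highest untreated pool. Its log2 fold change was −0.21 ± 0.17 (SE), with an interval of the fold of 0.68 to 1.11. It was −0.057 without RUX pool 4 and −0.36 without RUX pool 6. Atm, the kinase that responds to double-strand breaks (chromosome 9, 53437122 to 53536671), measured 43.9, 46.5 and 45.0 CPM in RUX pools 4, 5 and 6, against 36.9, 50.9 and 32.9 CPM in untreated pools 1, 2 and 3. The RUX values were tight (45.2 ± 1.29 CPM, SD, n = 3) and the untreated values wide (40.3 ± 9.46 CPM), with untreated pool 2 above all RUX pools. The log2 fold change was 0.17 ± 0.17 (SE). With one pool left out it ranged from 0.0391 without untreated pool 3 to 0.38 without untreated pool 2, where the unadjusted p was 0.0357 and the edgeR adjusted p 0.972. Atr and Chek1 form the branch that responds to stalled replication. Atr averaged 42.2 ± 10.1 CPM in RUX pools and 40.9 ± 9.97 CPM in untreated pools, and Chek1 averaged 69.7 ± 2.38 CPM in RUX pools and 68.0 ± 11.6 CPM in untreated pools (SD, n = 3 each).

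The end joining genes included the highest and the lowest member. Xrcc6, which encodes Ku70 of the Ku clamp that seizes broken ends (chromosome 15, 82016369 to 82040084), measured 140.4, 162 and 164 CPM in RUX pools 4, 5 and 6, against 171, 157 and 163 CPM in untreated pools 1, 2 and 3. RUX pool 4 was the lowest and the other 5 pools lay within 157 to 171 CPM. Xrcc5, which encodes the partner Ku80, averaged 65.4 ± 9.92 CPM in RUX pools and 63.4 ± 11.3 CPM in untreated pools (SD, n = 3 each). Lig4, the ligase that seals the joined ends (chromosome 8, 9970020 to 9976323), measured only 5.17, 4.88 and 3.35 CPM in the RUX pools and 6.11, 4.30 and 3.13 CPM in the untreated pools. Its interval of the fold, 0.65 to 1.52, was the widest of the group. Prkdc encodes DNA-PKcs, the kinase recruited by Ku, and averaged 49.4 ± 3.57 CPM in RUX pools and 46.5 ± 14.5 CPM in untreated pools (SD, n = 3 each), with untreated pools at both extremes of the 6. Xrcc4, the scaffold of LIG4, spanned 14.0 to 19.7 CPM and was highest in untreated pool 3 and RUX pool 4.

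**Figure D3:**
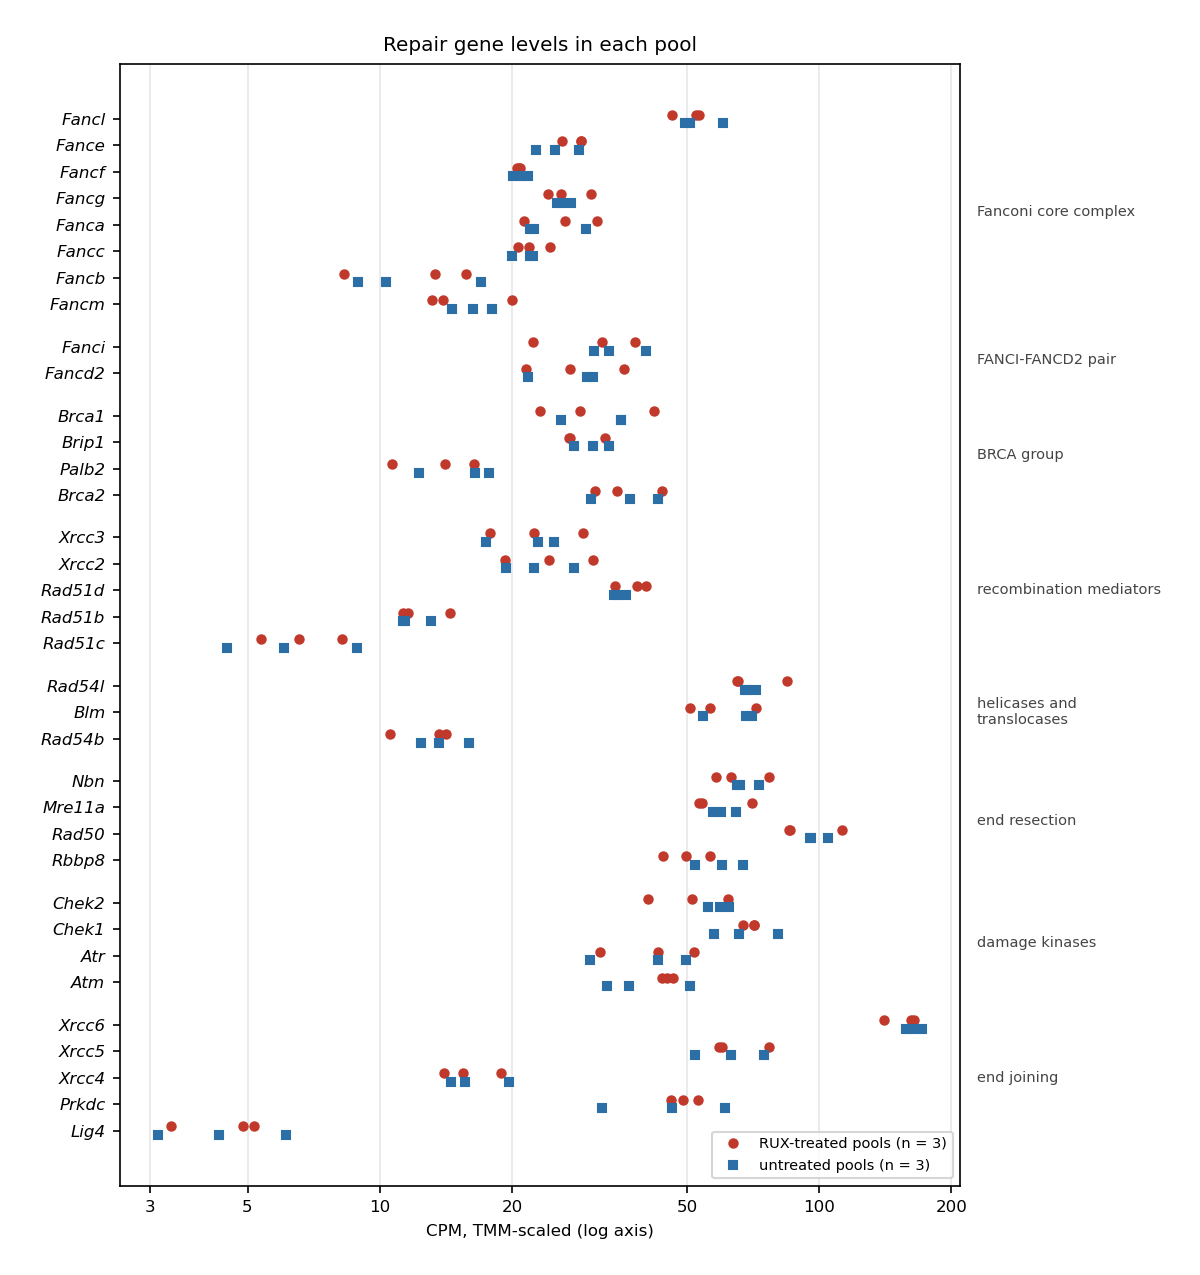
Level of each repair gene in every pool, in TMM-scaled CPM (x axis, log scale), with genes grouped by role down the page. Circles (upper of each row) are the 3 RUX-treated pools and squares (lower) the 3 untreated pools; the 2 sets overlap in each of the 35 rows.

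The members varied with the pool in both groups. RUX pool 6 was the highest pool for 16 of the 35 genes and untreated pool 1 for 9, where these pools were highest for 16.8 and 19.9% of all tested genes. RUX pool 4 was the lowest for 17 and untreated pool 3 for 9, where the shares of all tested genes were 19.6 and 21.6%. Relative to the gene's own average of log2(CPM + 1) across the 6 pools, the 35 genes had mean deviations that stood at −0.14, −0.02 and 0.14 in RUX pools 4, 5 and 6 and at 0.06, 0.06 and −0.10 in untreated pools 1, 2 and 3. The FANCI-FANCD2 pair spanned the widest range, with −0.42 in RUX pool 4 and 0.31 in RUX pool 6. The recombination mediators and end joining genes departed from it, at 0.02 and 0.04 in RUX pool 4 and 0.10 and −0.01 in RUX pool 6. The median ratio of the highest to the lowest pool was 1.46 for the repair genes, beside 1.53 for all tested genes.

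Cell cycle genes and lineage markers also moved by pool. The 42 S-phase genes, which share no member with the 35, stood at −0.17, −0.04 and 0.12 in RUX pools 4, 5 and 6 and at 0.07, −0.03 and 0.06 in untreated pools 1, 2 and 3. The 33 G2/M genes stood at −0.12, −0.08 and 0.19 in the RUX pools and at 0.04, −0.02 and −0.01 in the untreated pools. Summed over the list, S-phase genes reached 8323 to 10168 CPM in RUX pools and 9214 to 9644 CPM in untreated pools, and G2/M genes 3440 to 4156 CPM in RUX pools and 3620 to 3754 CPM in untreated pools, with every listed gene tested. Of 20 erythroid markers, 15 were tested, and they stood at −0.38, −0.08 and 0.51 in RUX pools 4, 5 and 6 and at −0.08, 0.19 and −0.16 in untreated pools 1, 2 and 3, with sums of 6090 to 9257 CPM in RUX pools and 6634 to 7762 CPM in untreated pools. The globin genes Hba-a1, Hba-a2, Hbb-bs and Hbb-bt were at 0 counts. Of 17 neutrophil markers, 16 were tested, at 0.56, 0.11 and −0.81 in RUX pools 4, 5 and 6 and at −1.43, 0.42 and 1.15 in untreated pools 1, 2 and 3, with sums of 8521 to 12300 CPM in RUX pools and 6986 to 16043 CPM in untreated pools. Stem cell markers, 15 of 16 tested, were lowest in untreated pool 3 at −0.47, with sums of 773 to 859 CPM in RUX pools and 611 to 881 CPM in untreated pools. Their part and that of these other cell types and phases in the levels of the repair genes was not tested.

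**Figure D4:**
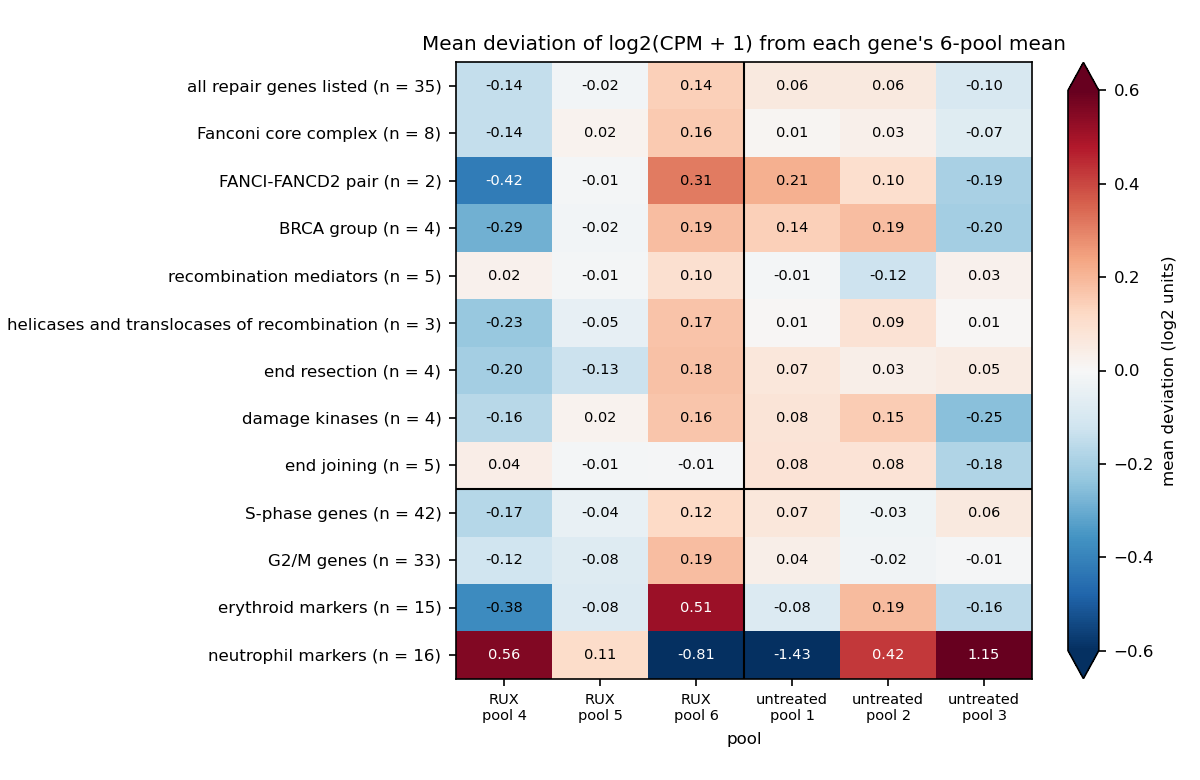
Mean deviation of log2(CPM + 1) from the gene's own average across the 6 pools (colour and printed value, log2 units), for the 35 repair genes, their 8 role groups and 4 other gene lists (rows), in the RUX-treated pools (left) and the untreated pools (right). RUX pool 4 is low and RUX pool 6 high for most role groups; colours saturate at ±0.6, which the neutrophil list exceeds.

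Exon length moved with the pools as well. Among genes with a mean of at least 5 CPM, the 1159 genes over 6 kb had a median deviation of −0.22 in untreated pool 3 and 0.15 in untreated pool 2, and the 2881 genes of up to 2 kb had 0.15 and −0.10 in the same pools. The 9 repair genes over 6 kb, among them Atm, Brca2, Atr, Prkdc and Brca1, had medians of −0.22, −0.03 and 0.17 in RUX pools 4, 5 and 6 and of −0.0002, 0.18 and −0.25 in untreated pools 1, 2 and 3. The 3 repair genes of up to 2 kb, Fancl, Fancf and Xrcc4, had medians of 0.04, −0.06 and 0.003 in the RUX pools and of 0.01, −0.03 and −0.05 in the untreated pools. When a smooth trend of level on exon length was removed from each pool, the mean deviation of the 35 genes became −0.05, −0.04 and 0.07 in RUX pools 4, 5 and 6 and 0.01, −0.05 and 0.06 in untreated pools 1, 2 and 3. RUX pool 4 was then the lowest for 10 of the 35 genes (17.3% of all tested genes). RUX pool 6 was the highest for 12 (17.5%), and untreated pool 3 was the highest for 11 (20.1%), against 3 before the correction. The median log2 fold change was 0.003 with the trend removed, and 0 repair genes were called. This correction was chosen after the data had been seen, and why length moved with the pools was not tested.

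**Figure D5:**
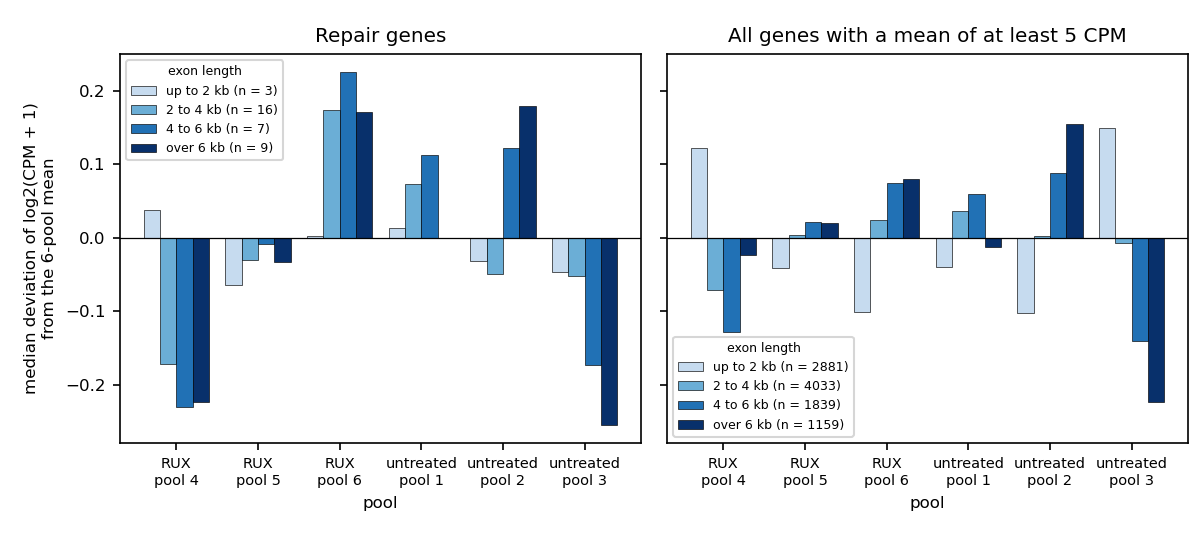
Median deviation of log2(CPM + 1) from the mean over the 6 pools (y axis, log2 units) by exon length class, for the 35 repair genes (left panel) and for all genes with a mean of at least 5 CPM (right panel), with the RUX-treated pools left of the untreated pools. In untreated pool 3 the longest class is the lowest in both panels, at −0.25 for repair genes and −0.22 for all genes.

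Other genes of the same pathways did not pass the test either. Of 70 listed, 69 were found and tested, and 0 passed edgeR's adjusted threshold in either direction, where 0% of all 13411 tested genes passed. Log2 fold changes were positive for 25 and negative for 44, with a median of −0.04, beside 50.8% negative over all tested genes. By group, 10 of 11 other end joining genes and 16 of 25 other recombination genes were negative. So were 12 of 21 other damage signalling genes and 6 of 12 other Fanconi pathway genes. Fam175a, which encodes the Abraxas scaffold of the BRCA1-A complex, had the smallest unadjusted p. It measured 26.9, 30.3 and 29.8 CPM in RUX pools 4, 5 and 6, against 47.3, 33.9 and 36.8 CPM in untreated pools 1, 2 and 3, without overlap. Its log2 fold change was −0.44 ± 0.16 (SE), with an unadjusted p of 0.0184 and an edgeR adjusted p of 0.9999. Mus81, a nuclease gene named after its values were seen, was the other gene without overlap, at 17.8 to 18.1 CPM in RUX pools and 19.2 to 20.2 CPM in untreated pools. These 2 of 69 genes compare with 3.25% of tested genes that lay lower without overlap. Fan1, a nuclease of crosslink repair, and Gen1, a resolvase, had log2 fold changes of −0.50 ± 0.27 and −0.38 ± 0.20 (SE). On the higher side were Polq, the polymerase of an alternative end joining route (0.28 ± 0.20), Bard1, the partner of BRCA1 (0.25 ± 0.22), and the core complex subunit gene Faap20 (0.23 ± 0.16), none past the test.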

How the data were processed

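Per the labels' protocols, the SMART-Seq mRNA LP kit was used for library preparation. The submitters' processing notes name STAR and the build mm10. The authors deposited raw counts of read pairs per gene from featureCounts 2.0.3 over exons of a UCSC mm10 annotation, per the file headers, with no strand, multi-mapping or multi-overlap option set. The deposited exon length in bases was used for values per kb.

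Columns were matched to pools by library name and grouped by the treatment label. In R 4.3.3, edgeR 4.0.16 kept 13411 genes with filterByExpr at its defaults, scaled libraries by TMM (factors 0.938 to 1.035) and tested all of them by the two-sided quasi-likelihood test with treatment as the only term, adjusted by Benjamini-Hochberg at 0.05. Each SE was the log2 fold change divided by the root of F, and gave the 95% interval. CPM values use TMM-scaled library sizes of the tested genes. P-values set the group difference against the spread between pools, which edgeR estimates with information shared across genes. No molecular identifiers are stated, so counts are of read pairs rather than molecules. DESeq2 1.42.0 and limma 3.58.1 served as alternatives.

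Members, lists and tests were chosen with earlier results of these data known. Full values are given for the 5 members of smallest unadjusted p per direction and for the highest and lowest member of each role group per kb, and up to 3 other pathway genes per direction are named. Fancf and Fancb were added for their narrowest and widest spans after their values were seen. Promoters come from RefSeq (GRCm38.p6), which matched 27 of 35 symbols; Fancd2, Rad51d, Xrcc2, Rad54b, Rbbp8, Rad50, Nbn and Prkdc had no entry. A planned protein motif search was not analysed here. Fam175a, Fam35a and BC029214 were matched by older symbols.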

Additional observations from a re-analysis of the deposited data

How the results depend on the processing

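No paired analysis was possible because the groups share no replicate numbers. Under 14 planned settings (other scalings, filters and tools, and each pool left out) and 2 chosen after the data were seen (RUX pool 4 and untreated pool 3 left out together, and the length trend removed), 0 of the 35 repair genes and 0 of the 69 other pathway genes were called, and all 35 intervals stayed within 2-fold. The median log2 fold change of the 35 ranged from −0.11 to 0.05 with a pool left out (−0.11 without RUX pool 6). The count of repair genes without overlap was 0, but 1 to 7 with a pool left out (11.1 to 20.8% of tested genes) and 3 without RUX pool 4 and untreated pool 3, where smaller groups overlap less often (32.4% of tested genes in that fit). Limma-voom with quality weights called 1 gene of all tested and the fit with no low-count filter 14, none a repair gene. Each other setting called 0 of all tested genes.

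Of 27 named genes, 13 kept their direction in every setting. With each pool left out, log2 fold changes ranged from −0.36 to 0.0182 for Fanci, −0.0472 to 0.25 for Fanca, −0.0875 to 0.25 for Xrcc2, −0.13 to 0.0127 for Fancl, −0.27 to 0.0651 for Fancm, −0.16 to 0.22 for Fancd2, −0.32 to 0.14 for Brca1, −0.16 to 0.13 for Brca2, −0.11 to 0.25 for Xrcc3, −0.15 to 0.34 for Rad51c, −0.0894 to 0.11 for Rad54l, −0.16 to 0.0477 for Nbn and −0.22 to 0.26 for Lig4. Direction also turned for Brca2 with DESeq2 size factors and DESeq2 (0.0003 in each), for Lig4 with upper-quartile scaling (0.0037), limma-voom (0.0297) and the length trend removed (0.0382), and with quality weights for Rad54b (0.0058), Fancd2 (−0.0209) and Rad54l (−0.0339). Without RUX pool 4 and untreated pool 3 it turned for Rad54b (0.0964), Fancm (0.0603) and Nbn (0.0972). The cause was not tested. None of these values was called in any setting.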
